A study of Mus musculus with 12 samples.

Results

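Acinar cells are the enzyme factories of the exocrine pancreas, and RNA for their digestive enzymes was read here in cells sorted for another fate, that of the glucagon-producing α cell. The genes described are 37 acinar genes, taken by name from the 55417 genes of the deposited table that also holds reporter sequences. Of these, 31 encode secreted proteins (proteases, lipases, amylases, nucleases and other cargo of the zymogen granule), 4 encode acinar transcription factors (Ptf1a, Rbpjl, Nr5a2 and Bhlha15), 1 encodes a chaperone of the endoplasmic reticulum (Erp27) and 1 a receptor (Cckar). All 37 names were found once in the table. The tissue was the pancreas of mouse embryos at E17.5 with the genotype Gcg-Timer, so every group carried this reporter, a fluorescent timer tied to the glucagon gene Gcg whose colour shifts with age. Cells were sorted into group B (green and red signal, labelled as α cells that are more differentiated), group A (mostly green signal, labelled as α cells that are newly generated) and group N (cells outside the α cell gates). Each group had 4 libraries, 12 in all, the replicates came from different mothers, and the labels do not say whether embryos of a litter were pooled. Group N is therefore a mixture of every pancreatic cell type outside the α cell gates, acinar cells among them.

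In the acinar cell, the basic helix-loop-helix factor Ptf1a pairs with an E protein and with Rbpjl to form the PTF1 complex, which binds a bipartite element, an E-box followed by a TC-box, near the genes of digestive enzymes. Nr5a2 is a nuclear receptor that works with PTF1 on these genes, and Bhlha15, also called Mist1, drives the build-up of the secretory apparatus. The enzymes are made as inactive zymogens, packed into granules and released when cholecystokinin binds Cckar. Enzyme RNAs are among the most abundant messages of the pancreas, while RNAs for the factors are scarce.

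Promoters are shown as background on these genes, most of which moved together between the sorted groups. Whether the promoters had a part in that joint change was not tested. RefSeq promoter sequences (assembly GRCm38.p6, the 250 bases before the annotated start, on the gene's strand) were matched for 29 of the 37 genes. The first 3 below are the only matched promoters with a PTF1-type element, searched on both strands as CANNTG followed after 2 to 20 bases by TTTCCC. Rbpjl is shown as a factor gene with an E-box CAGGTG, and Pnlip as an enzyme gene that was close to 0 in every library. Capitals mark CAGGTG or its reverse complement CACCTG, the box TTTCCC or its reverse complement GGGAAA, the TATA box TATAAA on the gene's strand, and the CANNTG of a PTF1-type element. A PTF1-type element always holds a TTTCCC and may hold a CAGGTG.
Cela1 (chr15:100687921-100688170, minus strand): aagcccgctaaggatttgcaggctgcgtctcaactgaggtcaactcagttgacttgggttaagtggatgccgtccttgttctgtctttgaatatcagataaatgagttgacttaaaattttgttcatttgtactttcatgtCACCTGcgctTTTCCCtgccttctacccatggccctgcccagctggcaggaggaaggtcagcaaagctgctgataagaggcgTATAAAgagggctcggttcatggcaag
Ctrb1 (chr8:111691011-111691260, minus strand): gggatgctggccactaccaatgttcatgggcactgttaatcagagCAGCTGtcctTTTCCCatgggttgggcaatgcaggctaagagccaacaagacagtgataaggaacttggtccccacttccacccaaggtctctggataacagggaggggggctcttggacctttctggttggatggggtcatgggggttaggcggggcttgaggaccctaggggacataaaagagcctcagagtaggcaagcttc
Cel (chr2:28563404-28563653, minus strand): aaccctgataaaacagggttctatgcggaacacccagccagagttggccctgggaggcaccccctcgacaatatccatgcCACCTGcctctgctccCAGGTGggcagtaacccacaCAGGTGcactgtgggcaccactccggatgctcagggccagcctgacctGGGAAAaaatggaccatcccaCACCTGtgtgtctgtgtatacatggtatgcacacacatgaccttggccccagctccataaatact
Rbpjl (chr2:164402944-164403193, plus strand): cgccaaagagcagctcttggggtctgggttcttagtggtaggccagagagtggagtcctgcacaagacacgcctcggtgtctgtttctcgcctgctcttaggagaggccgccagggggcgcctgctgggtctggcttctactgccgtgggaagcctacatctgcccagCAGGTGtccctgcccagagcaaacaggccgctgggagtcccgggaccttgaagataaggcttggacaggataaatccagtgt
Pnlip (chr19:58670115-58670364, plus strand): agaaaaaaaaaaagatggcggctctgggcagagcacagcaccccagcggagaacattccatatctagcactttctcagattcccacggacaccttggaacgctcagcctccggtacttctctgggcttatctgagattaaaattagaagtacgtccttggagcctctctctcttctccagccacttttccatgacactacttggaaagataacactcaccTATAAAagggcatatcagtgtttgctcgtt

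In Cela1 and Ctrb1 the element lay on the gene's strand, from 109 to 94 and from 205 to 190 bases before the start, and in Cel it lay on the other strand, from 86 to 60 bases before it. The PTF1-type element stood in 3 of the 29 matched promoters (10.3%) and in 1.85% of the 27025 promoters of all genes in the table. CAGGTG on either strand was held by 15 of the 29 (51.7%), against 17.1% of all promoters. TTTCCC on either strand was held by 24.1% of the 29 and 21.9% of all, and TATAAA on the gene's strand by 27.6% of the 29 and 8.12% of all. These are matches of letters in a short window and say nothing of binding.

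Libraries of B held between 16216935 and 24259164 counts, those of A between 18168640 and 25873608, and those of N between 32114272 and 38545699. A filter on low counts kept 17230 genes, among them 36 of the 37 acinar genes; Reg2, a regenerating-family protein, had at most 3 counts in a library and was not tested. Levels are normalised read counts (CPM, reads of a gene relative to the library total, scaled by TMM factors), changes are log2 differences with their standard error (SE) from edgeR's quasi-likelihood test, and a gene is called where the p adjusted over all genes tested is under 0.05. The sort was checked on Gcg, which stood at 37300 ± 7190 CPM in B, 15400 ± 4430 CPM in A and 102 ± 30.9 CPM in N (SD, n = 4 each). The erythroid markers took 6.14% to 23% of counts in N libraries, against 0.0278% to 0.0942% in B and 0.034% to 0.214% in A, and the TMM factors of N libraries were lower than those of B and A (0.732 to 0.81 in N). The N library numbered 2 stood apart in its acinar RNA, as described below. Counts of called genes, their median change and the call of Ctrc are also given without it. Most other values, among them the shares and ratios, are given only with it. In bulk libraries such as these, fewer acinar cells and less acinar RNA per cell cannot be told apart.

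Acinar RNA was lower in both α cell groups than in N, for enzymes and for factors alike. In B against N, 33 of the 36 tested genes fell and 1 rose, while 30.5% of all tested genes were called lower and 29.7% higher. In A against N, 31 fell and 1 rose, while 21.3% of all tested genes were called lower and 23.8% higher. The median log2 change of the 36 genes was -2.59 in B against N and -1.93 in A against N, beside -0.03 and -0.02 over all genes tested. The log2 change was below 0 for 35 of the 36 genes in B against N and for 34 in A against N, beside 51.1% and 51.3% of all tested genes. No overlap with N, on the lower side, was seen for 30 genes in B and 27 in A, beside 29.5% and 21.3% of all tested genes, and on the higher side for Pla2g1b in both, beside 28.8% and 22%. The counts of falling genes were 33 in B against N and 32 in A against N without the N library numbered 2. Of 17545 tested genes, 5065 were then called lower in B against N and 3446 in A against N. The median log2 change of the 36 genes was then -2.78 in B against N and -2.05 in A against N. The comparisons with N share the N libraries. With library totals alone in place of TMM factors, the median of all genes moved to 0.51 in B against N and 0.54 in A against N, and the median of the acinar genes to -2.05 and -1.37.

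**Figure D1:**
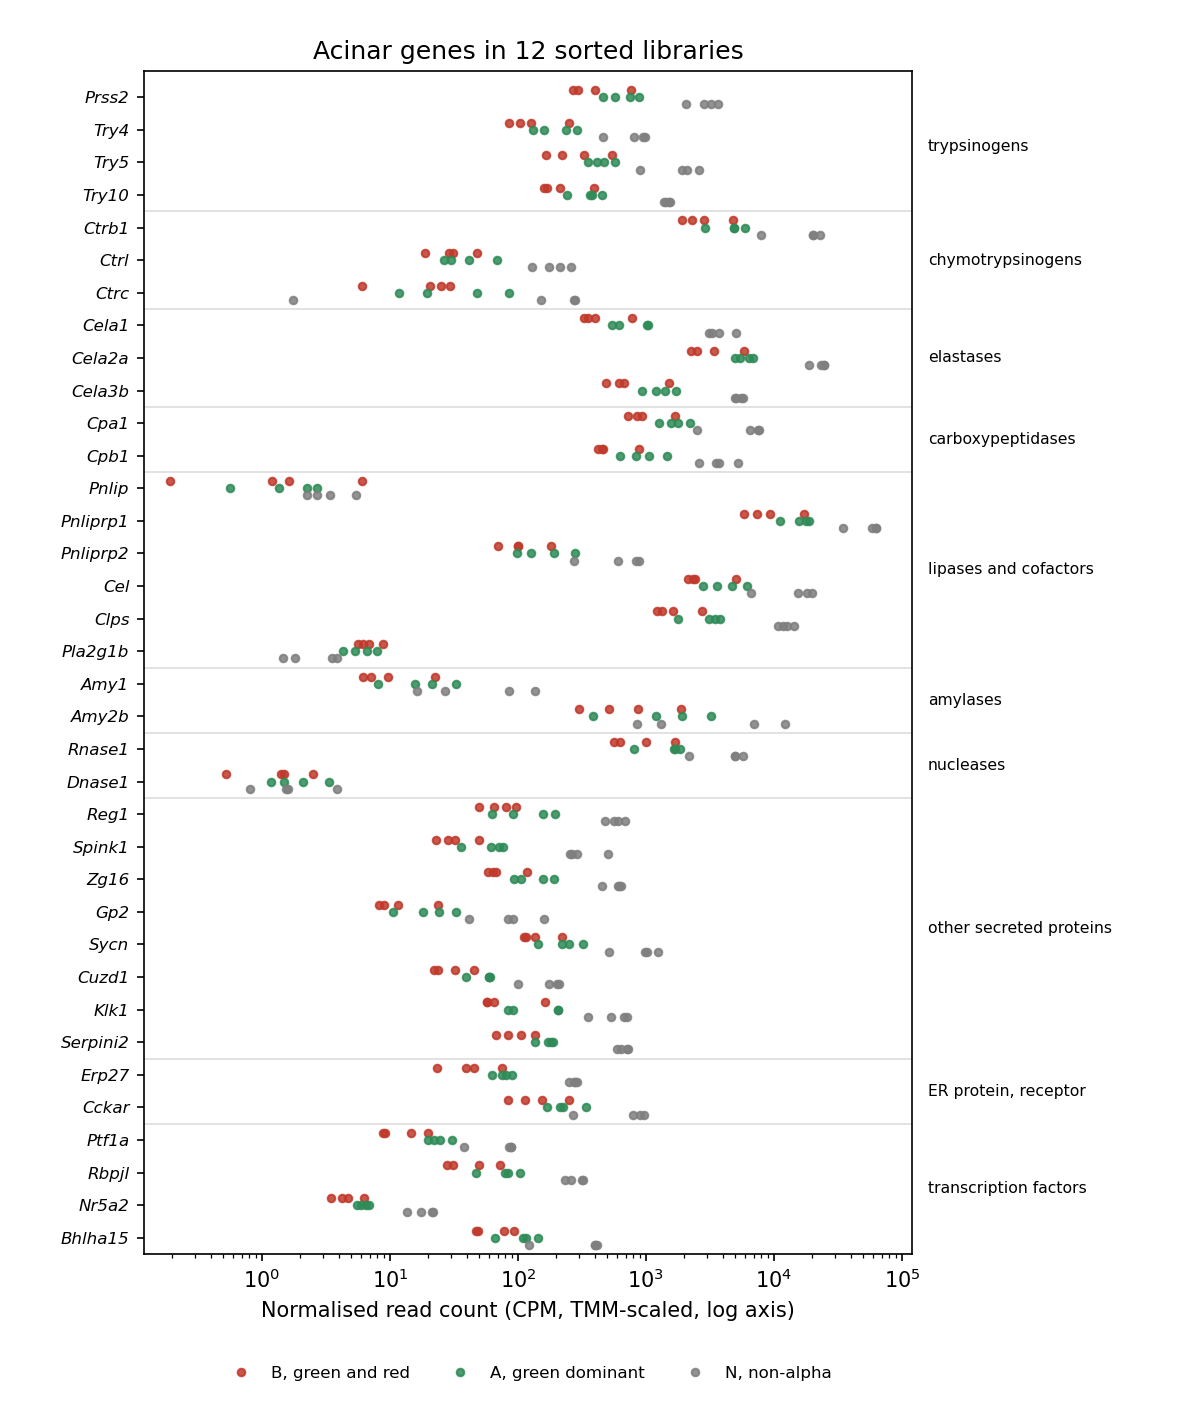
Normalised read count (CPM, TMM-scaled, log axis) of the 36 tested acinar genes in each of the 12 libraries, with B, A and N from top to bottom within a gene and genes grouped by role. N lies to the right of B and A for most genes, while Pla2g1b lies to the left in N and Pnlip and Dnase1 overlap near 1 CPM.

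**Figure D2:**
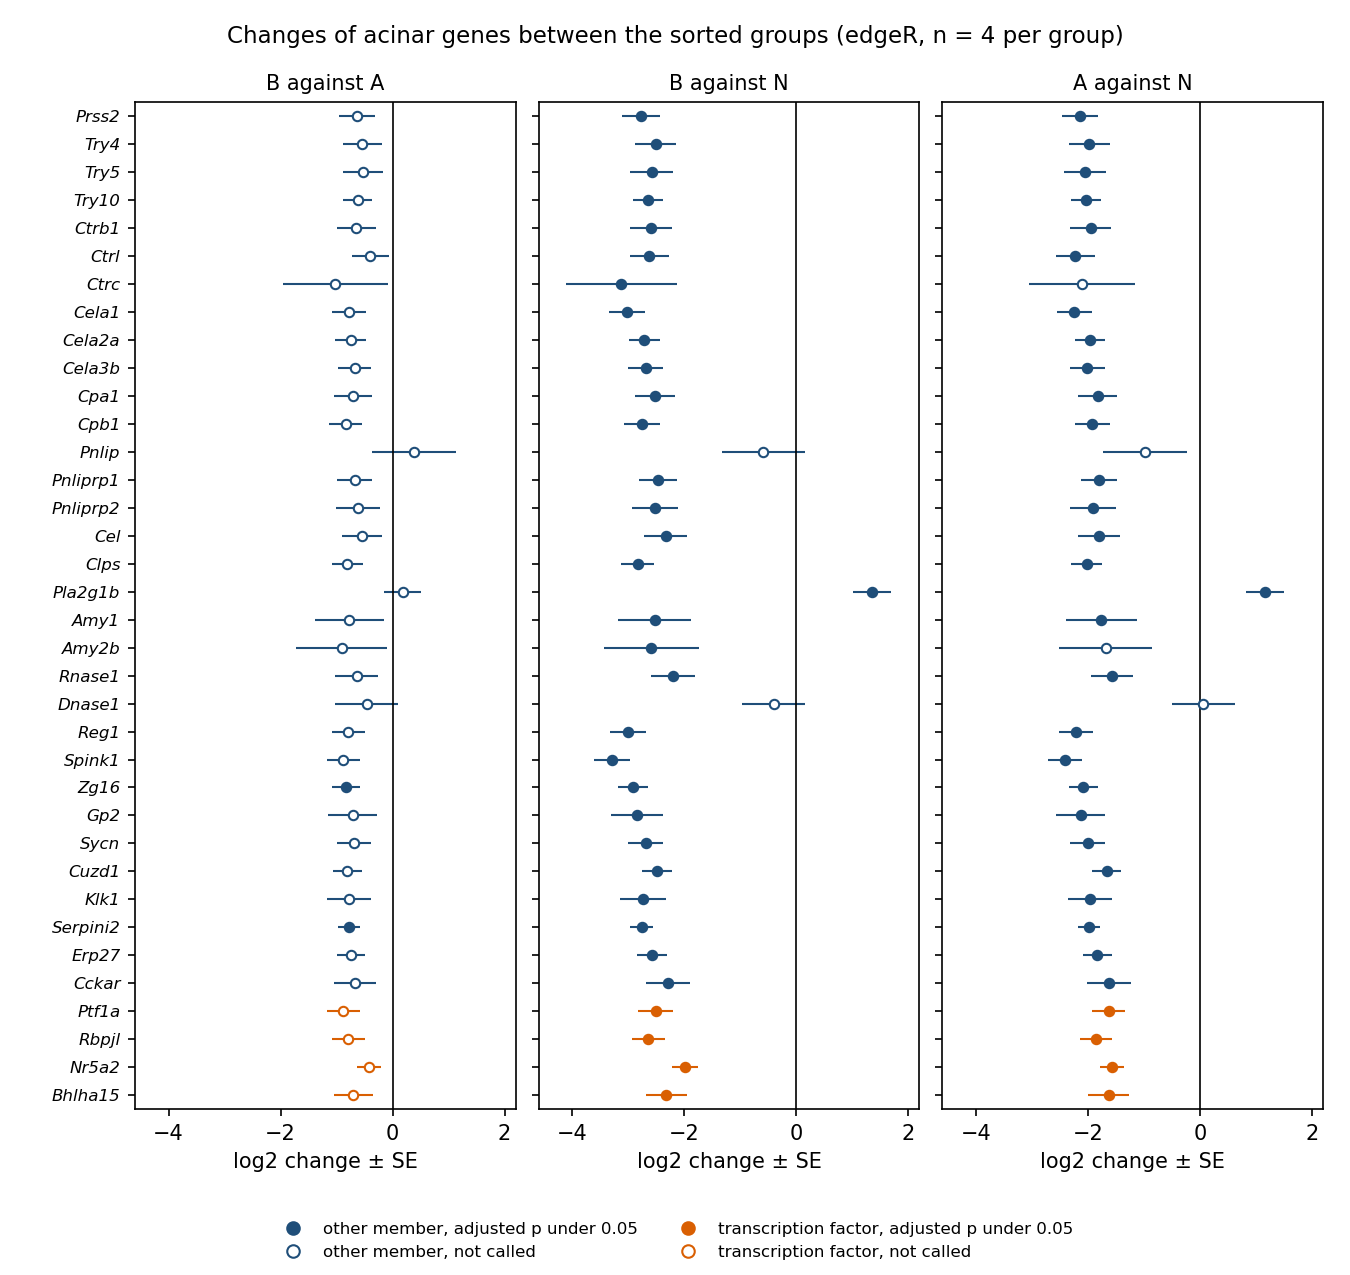
The log2 change (± SE, edgeR, n = 4 per group) of each acinar gene in B against A, B against N and A against N, with filled points for genes called at an adjusted p under 0.05. Transcription factors, in orange, lie within the range of the other genes in all 3 panels, and Pla2g1b is the single gene called on the positive side in both comparisons with N, where Dnase1 lies at 0.06 in A against N without a call.

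The trypsinogens, precursors of the protease that activates the other zymogens, were represented by Prss2, Try4, Try5 and Try10. Prss2 (ENSMUSG00000057163.4, chromosome 6, 41498721 to 41502013, taken as GRCm39 like all gene coordinates from here on) stood at 397, 770, 268 and 295 CPM in B, at 464, 757, 579 and 882 CPM in A, and at 3640, 2050, 2850 and 3250 CPM in N. Every N library lay above every library of B and A, and B and A overlapped. The log2 change was -2.77 (SE 0.34, edgeR adjusted p = 1.18e-05) in B against N and -2.14 (SE 0.33, adjusted p = 0.000195) in A against N. All 4 trypsinogens fell in both comparisons, by -2.77 to -2.51 in B against N and by -2.14 to -1.97 in A against N on the log2 scale. These genes are near-identical copies, and how shared reads were divided among them is not given, so values of single trypsinogens are uncertain.

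Among the chymotrypsinogens, Ctrb1 (ENSMUSG00000031957.7, chromosome 8, 112413151 to 112417642) stood at 2300, 4820, 2840 and 1910 CPM in B, at 2910, 4870, 4860 and 5950 CPM in A, and at 23000, 7960, 20400 and 20300 CPM in N. The lowest N value, that of library 2, still lay above the highest value of A and of B. Ctrb1 fell by 2.59 on the log2 scale in B against N (log2 change -2.59, SE 0.37, edgeR adjusted p = 4.87e-05) and by 1.95 in A against N (log2 change -1.95, SE 0.36, adjusted p = 0.000804). Ctrl, a chymotrypsin-like protease, fell with log2 changes of -2.62 in B against N and -2.22 in A against N. Ctrc, which degrades trypsinogen and is typed as a polymorphic pseudogene in the deposited table, stood at 25.3, 20.6, 6.03 and 29.4 CPM in B, at 19.6, 11.7, 48.3 and 85 CPM in A, and at 151, 1.74, 274 and 280 CPM in N. The N library numbered 2 was the lowest of all 12. Ctrc was called lower in B against N (log2 change -3.12, SE 0.99, edgeR adjusted p = 0.0149, and adjusted p = 0.063 with the replicate number as a block). It was not called in A against N (log2 change -2.10, SE 0.95, adjusted p = 0.0875), where it was called without the N library numbered 2 (log2 change -2.51, adjusted p = 0.00613).

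The elastases digest elastin and other proteins. Cela2a, the most counted of them (ENSMUSG00000058579.6, chromosome 4, 141542273 to 141553471), stood at 3420, 5850, 2530 and 2260 CPM in B, at 4930, 6370, 5420 and 6900 CPM in A, and at 24800, 18800, 23400 and 24800 CPM in N. The N libraries were tight and lay far above the rest, and the highest B library lay within the range of A. The log2 change was -2.71 (SE 0.28, edgeR adjusted p = 3.14e-06) in B against N and -1.96 (SE 0.27, adjusted p = 9.3e-05) in A against N. Cela1 and Cela3b also fell in both comparisons, with log2 changes of -3.02 and -2.69 in B against N and -2.24 and -2.01 in A against N. Cpa1, a carboxypeptidase that trims residues from the ends of peptides (ENSMUSG00000054446.9, chromosome 6, 30639217 to 30645362), stood at 931, 1700, 856 and 722 CPM in B, at 1260, 1580, 1790 and 2220 CPM in A, and at 7700, 2510, 6500 and 7490 CPM in N. Again the N library numbered 2 was the lowest of its group and lay just above A. The log2 change of Cpa1 was -2.52 (SE 0.36, edgeR adjusted p = 4.52e-05) in B against N and -1.82 (SE 0.35, adjusted p = 0.00099) in A against N, and Cpb1, another carboxypeptidase, fell with log2 changes of -2.75 in B against N and -1.92 in A against N.

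The lipases and their partners held both the most abundant gene and the exceptions. Pnliprp1, a lipase-related protein (ENSMUSG00000042179.7, chromosome 19, 58717319 to 58732601), stood at 7390, 17100, 9280 and 5850 CPM in B, at 11100, 18700, 15600 and 17900 CPM in A, and at 63000, 34900, 58500 and 63300 CPM in N. All N libraries lay above all others. The log2 change was -2.47 (SE 0.34, edgeR adjusted p = 3.32e-05) in B against N and -1.80 (SE 0.33, adjusted p = 0.000735) in A against N. Per gene length, Pnliprp1 was also the highest of the 37 in each group, with a mean level of 11400 TPM in B, 18600 TPM in A and 32500 TPM in N. Clps, the colipase, came next at 7950 TPM in B, 14000 TPM in A and 28400 TPM in N. Clps, Cel (the bile salt-activated lipase) and Pnliprp2 fell in both comparisons, with log2 changes of -2.83, -2.33 and -2.52 in B against N and -2.02, -1.80 and -1.90 in A against N.

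Pnlip, the classical pancreatic lipase, was close to 0 at this age. Its levels were 1.63, 6.04, 0.192 and 1.19 CPM in B, 0.562, 1.37, 2.71 and 2.27 CPM in A, and 2.24, 2.69, 5.39 and 3.4 CPM in N, with overlap of all groups. It was not called in B against N (log2 change -0.59, SE 0.74, edgeR adjusted p = 0.508; log2 change -1.80, adjusted p = 0.0408, without the B library numbered 2) or in A against N (log2 change -0.98, SE 0.75, adjusted p = 0.3). The gene lies 47099 bases from Pnliprp1 on chromosome 19. Pla2g1b, the secreted phospholipase of pancreatic juice, was the single gene to rise: it stood at 5.6, 6.87, 8.8 and 6.22 CPM in B, at 6.6, 4.34, 5.32 and 7.92 CPM in A, and at 3.87, 1.47, 3.55 and 1.83 CPM in N. Every library of B and of A lay above every N library, on low levels. The log2 change was 1.36 (SE 0.34, edgeR adjusted p = 0.00349) in B against N and 1.17 (SE 0.34, adjusted p = 0.0125) in A against N, and 0.18 (SE 0.33, adjusted p = 0.773) in B against A.

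The amylases cut starch. Amy2b (ENSMUSG00000083079.5, chromosome 3, 113054972 to 113064043, typed as an unprocessed pseudogene in the deposited table) stood at 872, 298, 1880 and 512 CPM in B, at 1200, 387, 3210 and 1910 CPM in A, and at 1320, 854, 12300 and 6970 CPM in N. The 3 groups overlapped, and library 3 was the highest and library 2 the lowest in each. Amy2b was called in B against N (log2 change -2.59, SE 0.85, edgeR adjusted p = 0.0179) but not without the N library numbered 3 (log2 change -1.78, adjusted p = 0.077) or the B library numbered 4 (adjusted p = 0.0507). In A against N it was not called (log2 change -1.68, SE 0.83, adjusted p = 0.114), and it was called with the replicate number as a block (log2 change -1.39, adjusted p = 0.0146). Amy1 was called in both (log2 change -2.53 in B against N and -1.76 in A against N), with an adjusted p of 0.0349 in A against N that lay between 0.0644 and 0.146 without the N libraries 3 or 4 or the A libraries 1, 2 or 4. Amy1 and Amy2b share sequence with 5 Amy2a genes that took 1.8% to 5.05% of counts in B libraries, 3.99% to 6.02% in A and 8.63% to 15.7% in N.

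Of the nucleases, Rnase1 (ENSMUSG00000035896.6, chromosome 14, 51382455 to 51384242) stood at 561, 1680, 998 and 624 CPM in B, at 809, 1660, 1840 and 1690 CPM in A, and at 4960, 2180, 4950 and 5700 CPM in N. The N library numbered 2 lay nearest to A, and no N library overlapped B or A. Rnase1 fell in B against N (log2 change -2.20, SE 0.39, edgeR adjusted p = 0.00029) and in A against N (log2 change -1.57, SE 0.38, adjusted p = 0.00497). Dnase1, which degrades DNA, was at most 3.84 CPM in a library and was not called (log2 change -0.40, SE 0.56, adjusted p = 0.554, in B against N, and 0.06, SE 0.56, adjusted p = 0.939, in A against N). Its sign turned under several alternatives. Dnase1 overlaps Trap1 on the other strand, and without a stated strand setting their reads cannot be told apart.

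The other secreted proteins include Sycn (syncollin, a granule protein), Zg16 and Gp2 (proteins of the granule membrane and matrix), Spink1 (the trypsin inhibitor), Reg1 (a regenerating-family protein of pancreatic juice), Cuzd1 (a zymogen granule protein), Klk1 (a kallikrein protease) and Serpini2 (a serine protease inhibitor). All 8 that were tested fell in both comparisons with N, and all 8 had no overlap with N. Sycn (ENSMUSG00000084174.4, chromosome 7, 28240310 to 28241634) stood at 115, 221, 136 and 111 CPM in B, at 144, 222, 250 and 324 CPM in A, and at 1250, 518, 976 and 1020 CPM in N. The log2 change of Sycn was -2.69 (SE 0.32, edgeR adjusted p = 8.9e-06) in B against N and -2.0 (SE 0.31, adjusted p = 0.000199) in A against N. Spink1 had the most negative log2 change of the 36 in A against N, -2.41, and in B against N, -3.29. The N library numbered 2 held 504 CPM of Spink1, against 254 to 290 CPM in the other N libraries. Erp27, the chaperone, fell with log2 changes of -2.58 in B against N and -1.83 in A against N. Cckar, the cholecystokinin receptor of the acinar cell (ENSMUSG00000029193.8, chromosome 5, 53855118 to 53865047), stood at 113, 250, 153 and 83.1 CPM in B, at 170, 215, 342 and 227 CPM in A, and at 964, 272, 900 and 794 CPM in N. The N library numbered 2 lay within the range of A and above B. The log2 change of Cckar was -2.29 (SE 0.40, edgeR adjusted p = 0.000259) in B against N and -1.62 (SE 0.39, adjusted p = 0.00471) in A against N.

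All 4 acinar transcription factors were read in every B and A library and fell in both comparisons with N. Ptf1a (ENSMUSG00000026735.3, chromosome 2, 19450474 to 19452312) stood at 8.9, 19.7, 14.7 and 9.15 CPM in B, at 19.9, 22.1, 30.6 and 24.5 CPM in A, and at 85.3, 37.8, 88 and 89.1 CPM in N. The 3 groups did not overlap, with B lowest and N highest. The log2 change was -2.51 (SE 0.31, edgeR adjusted p = 1.28e-05) in B against N, -1.63 (SE 0.30, adjusted p = 0.000704) in A against N and -0.88 (SE 0.30, adjusted p = 0.0656) in B against A. Rbpjl, the partner of Ptf1a (ENSMUSG00000017007.10, chromosome 2, 164245061 to 164257368), stood at 28, 72.4, 49.4 and 31.4 CPM in B, at 47.2, 79.5, 103 and 84.4 CPM in A, and at 234, 260, 316 and 323 CPM in N. N lay above both α cell groups, which overlapped. Its log2 change was -2.64 (SE 0.30, edgeR adjusted p = 6.64e-06) in B against N and -1.85 (SE 0.29, adjusted p = 0.000233) in A against N.

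Nr5a2, the scarcest of the 4 (ENSMUSG00000026398.15, chromosome 1, 136770309 to 136888186), stood at 3.45, 4.73, 6.23 and 4.22 CPM in B, at 5.94, 6.55, 5.5 and 6.85 CPM in A, and at 21.3, 13.5, 21.7 and 17.6 CPM in N. N lay above the other groups, and 1 B library, that numbered 3, reached into the range of A. The log2 change was -1.99 (SE 0.23, edgeR adjusted p = 6.61e-06) in B against N and -1.57 (SE 0.22, adjusted p = 0.000102) in A against N. Bhlha15 (ENSMUSG00000052271.8, chromosome 5, 144127104 to 144131259) stood at 48.8, 94, 77.8 and 47.4 CPM in B, at 66.8, 109, 116 and 144 CPM in A, and at 401, 123, 416 and 401 CPM in N. The N library numbered 2 lay inside the range of A, while the other N libraries were far above it. Its log2 change was -2.32 (SE 0.37, edgeR adjusted p = 0.000114) in B against N and -1.63 (SE 0.36, adjusted p = 0.0026) in A against N.

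Set against each other, the enzymes and the factors had ratios that overlapped between the 3 groups, with N above A at every replicate number. The 31 secreted genes together took 2.51%, 4.99%, 2.85% and 2.06% of counts in B libraries, 3.63%, 5.5%, 5.2% and 6.11% in A, and 14.1%, 8.38%, 12.9% and 15.3% in N. The 4 factors together took 0.0101%, 0.021%, 0.0168% and 0.0105% of counts in B, 0.0164%, 0.0245%, 0.0295% and 0.0291% in A, and 0.0568%, 0.0342%, 0.0616% and 0.0672% in N. Both shares had every N library above every B and A library, and in both the B library numbered 2 was the highest of B and the N library numbered 2 the lowest of N. The mean share in B was 24.5% of that in N for the secreted genes and 26.5% for the factors, and the mean share in A was 40.3% and 45.3%. Counting error alone gave 95% Wilson intervals of at most 0.0114 percentage points on either side for the secreted share and 0.000818 for the factor share.

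The ratio of the summed TPM of the secreted genes to that of the factors was 713, 658, 472 and 558 in B, 575, 629, 467 and 615 in A, and 694, 828, 603 and 653 in N. It averaged 600 ± 107 in B, 571 ± 73.4 in A and 694 ± 96.3 in N (SD, n = 4 each), and the 3 groups overlapped. Library 3 had the lowest ratio in each group. At every replicate number the ratio was higher in N than in A. It was also higher in N than in B at every number but 1. No test was made on these sums, since they are scores over chosen genes. Gene by gene, the median log2 change was -2.64 for the 30 tested secreted genes and -2.42 for the 4 factors in B against N, and -1.96 and -1.63 in A against N. By normalised count, the factors kept 16% to 25.2% of their N level in B (median 18.8%) and 27.7% to 33.6% in A (median 32.3%). The 30 tested secreted genes kept 10.2% to 257% in B (median 16%) and 18.8% to 226% in A (median 25.6%). Pnlip, Dnase1 and Pla2g1b, none of them called lower against N, were then set aside by their values, while no factor was. The other 27 secreted genes kept 10.2% to 21.7% in B (median 15.5%), a range narrowed by that choice. In A these 27 kept 18.8% to 33.7% (median 25.3%). Whether the acinar RNA of the α cell gates came from free RNA, from whole acinar cells or from the sorted cells themselves was not tested.

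**Figure D3:**
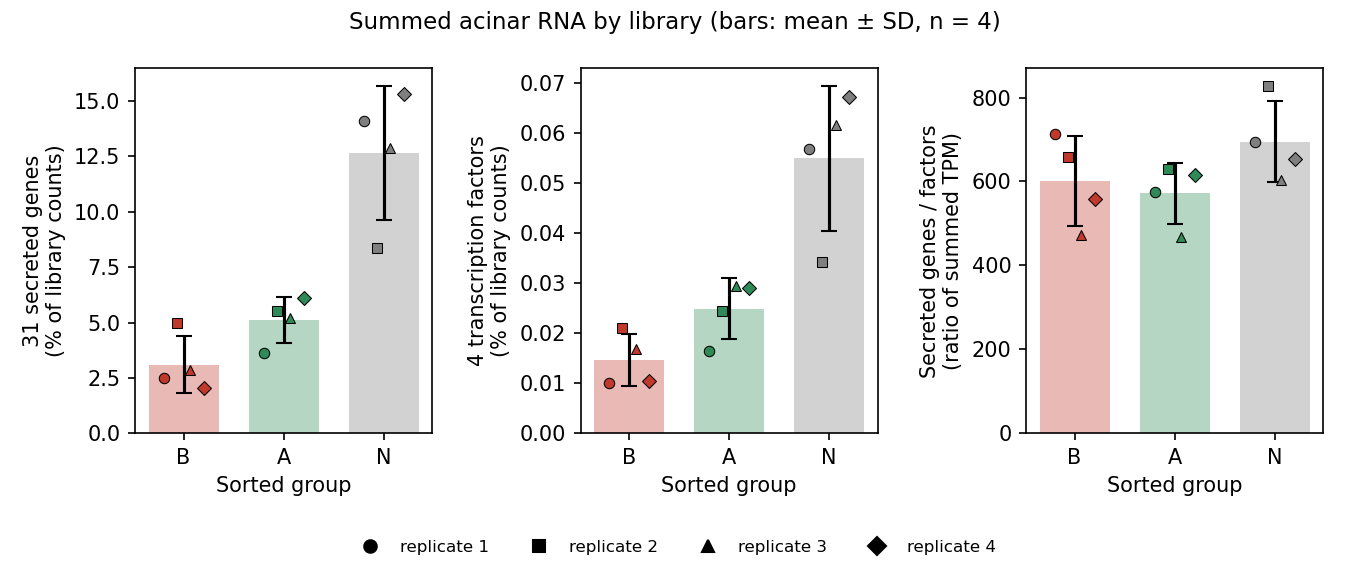
Summed counts of the 31 secreted genes and of the 4 transcription factors as a percentage of library counts, and the ratio of their summed TPM, in B, A and N (bars are means ± SD, n = 4, and points are libraries with a symbol per replicate number). Both shares are lowest in B and highest in N, while the ratio overlaps between groups, averaging 600 in B, 571 in A and 694 in N. The ratio is higher in N than in A at every replicate number.

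Other gene lists differed in how much of the N share was seen in B and A. Of 17 tested acinar secreted genes outside the 37, 16 fell in B against N and 14 in A against N, and their share was 23.3% of that in N for B and 39.1% for A. Of 25 genes of the acinar secretory machinery, 22 fell and 1 rose in B against N and 18 fell and 1 rose in A against N. The machinery list held 41.3% of its N share in B and 54.2% in A. Its first gene, Rab3d, a small GTPase of secretory granules, was not called, at 417 ± 15.3 CPM in B, 333 ± 40.1 CPM in A and 372 ± 133 CPM in N (SD, n = 4 each). Of 11 other regulators of acinar genes, many of which act in other pancreatic cells too, 8 fell and 2 rose in B against N and 7 fell and 2 rose in A against N. Their summed share did not fall as that of the 4 factors did: it was 112% of that in N for B and 113% for A. By normalised count these regulators held 76.7% of their N level in B and 75.8% in A. The first gene of this list, Gata4, stood at 27.5 ± 5.95 CPM in B, 26.3 ± 7.65 CPM in A and 77.5 ± 31 CPM in N.

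Markers of other cell types that a sort could carry over did not all keep the same share. The 10 erythroid markers held 0.438% of their N share in B and 1.11% in A, and the 12 mesenchymal markers 6.44% in B and 49% in A. The 10 endothelial markers held 10.5% in B and 47.8% in A, and the 10 immune markers 14.7% in B and 37% in A. The 15 ductal markers held 86.2% in B and 110% in A. These are shares of library counts without TMM factors, and the erythroid markers averaged 14.5% of counts in N. By normalised count, the ductal markers held 59.1% of their N level in B and 74% in A. The mesenchymal markers then held 4.49% and 33.5%, and the 31 secreted acinar genes 16.9% and 27.2%. In B against N, 12 of 12 mesenchymal, 10 of 10 endothelial, 10 of 10 immune and 9 of 10 erythroid markers fell, and in A against N 11, 8, 7 and 9 did. The ductal markers went both ways under their summed share: 11 of 15 fell and 2 rose in B against N (median log2 change -1.56), and 8 fell and 2 rose in A against N (median -0.94). The ductal markers that rose were the keratin gene Krt7 (log2 change 2.19 in B against N and 1.67 in A against N) and the tetraspanin-like gene Tm4sf4 (1.38 in B against N and 1.71 in A against N), named after their values were seen. Hbb-bs, a beta globin gene, stood at 184 ± 92.2 CPM in B, 456 ± 244 CPM in A and 67700 ± 37900 CPM in N (SD, n = 4 each), and Col1a1, the fibrillar collagen gene, at 180 ± 107 CPM in B, 1410 ± 629 CPM in A and 4100 ± 1030 CPM in N. Pecam1, the endothelial adhesion gene, stood at 2.69 ± 3.37 CPM in B, 19.7 ± 13.2 CPM in A and 74.5 ± 22.5 CPM in N. Ptprc, the leukocyte gene, stood at 1.32 ± 1.39 CPM in B, 5.19 ± 3.89 CPM in A and 29.7 ± 12.2 CPM in N, and Krt19, the ductal keratin gene, at 17.6 ± 8.45 CPM in B, 42.7 ± 13.9 CPM in A and 117 ± 9.36 CPM in N. Of these lists, the erythroid, mesenchymal, endothelial and immune markers kept less of their N share in B than the secreted acinar genes, and the ductal markers more. In A the order was another: mesenchymal, endothelial and ductal markers kept more than the secreted acinar genes (40.3%), and erythroid and immune markers less. At 0 in 1 or more B libraries were Twist1 (3 libraries), Tek and Hemgn (2 each), and Flt1, Klf1 and Cftr (1 each). The summed level of the mesenchymal markers was 0.0463% to 0.152% of counts in B libraries, 0.3% to 1.18% in A and 0.89% to 1.93% in N. The part of carried-over cells or RNA in these values was not tested.

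**Figure D4:**
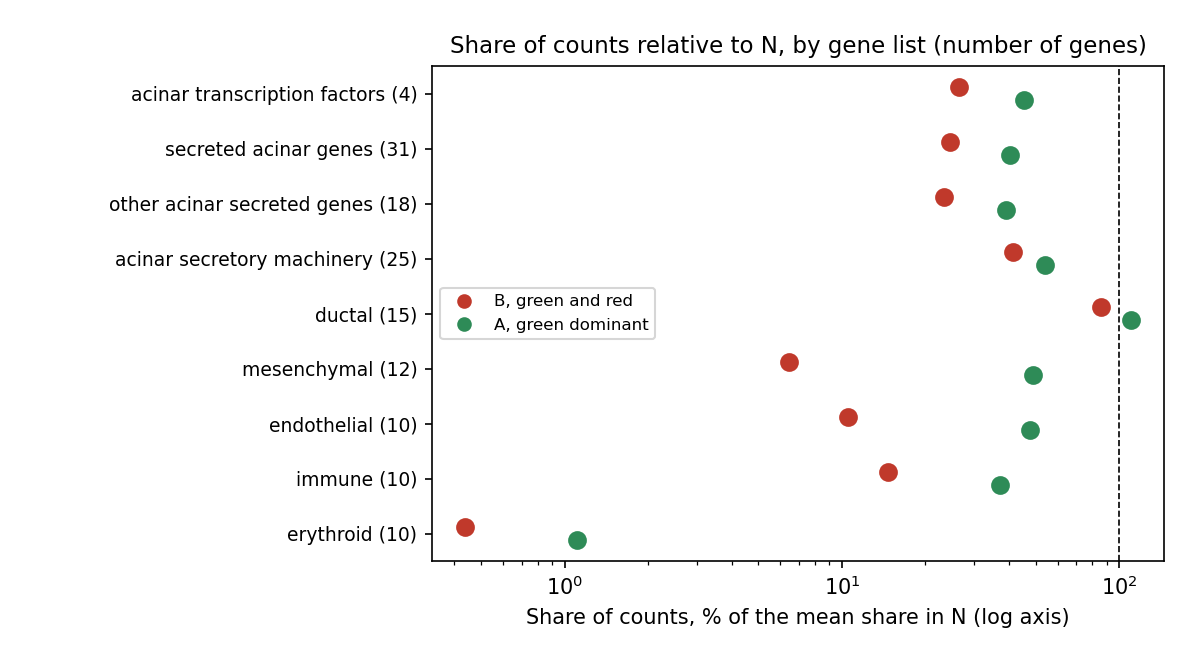
Mean share of counts in B and in A as a percentage of the mean share in N (log axis, dashed line at 100%), for the acinar genes and for lists of other genes with the number of genes found. Shares are of library counts without TMM factors, and the list of other acinar regulators is not drawn. The secreted genes (24.5% in B and 40.3% in A) and the factors (26.5% and 45.3%) lie close together, while the erythroid markers lie at 0.438% and 1.11%.

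The study set α cells further along against new ones, and in B against A the acinar genes were lower by a modest amount that rarely passed the test. Of the 36, 2 fell and 0 rose, beside 9.12% of all tested genes called lower and 4.63% called higher, so the called share is not above that of all genes. The log2 change was below 0 for 34 of the 36 genes, against 50.7% of all tested genes, and 20 of the 36 were lower in all 4 pairs of libraries with the same replicate number, against 20% of all tested genes. The median log2 change was -0.70 for the 36 genes, -0.69 for the 30 secreted ones, -0.74 for the 4 factors and -0.01 for all genes tested. Ptf1a alone of the 36 had no overlap between B and A, where 9.28% of all tested genes were lower and 9.67% higher without overlap. At an unadjusted p under 0.05, 15 of the 36 were lower and 0 higher, beside 16.6% and 12% of all tested genes. DESeq2 called 12 lower and 0 higher, beside 12% and 7.02% of all tested genes.

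The called genes were Zg16 and Serpini2. Zg16, a lectin of the zymogen granule (ENSMUSG00000049350.7, chromosome 7, 126649328 to 126686500), stood at 67.9, 117, 58.7 and 64.3 CPM in B, at 93.1, 158, 106 and 191 CPM in A, and at 606, 643, 457 and 617 CPM in N. The B library numbered 2 reached into the range of A. The log2 change in B against A was -0.83 (SE 0.25, edgeR adjusted p = 0.0446), and the call was lost in 9 alternatives, with adjusted p from 0.0602 to 0.118. Serpini2 (ENSMUSG00000034139.5, chromosome 3, 75149677 to 75177385) stood at 83, 136, 106 and 68 CPM in B, at 135, 183, 173 and 187 CPM in A, and at 590, 731, 641 and 709 CPM in N. Again only the B library numbered 2 touched the range of A. The log2 change in B against A was -0.78 (SE 0.19, edgeR adjusted p = 0.0152), and the adjusted p was 0.0539 without the B library numbered 1.

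Other acinar genes lay near the threshold in B against A. In order of edgeR adjusted p, Cuzd1 had a log2 change of -0.81 (adjusted p = 0.054), Spink1 of -0.88 (adjusted p = 0.0617) and Ptf1a of -0.88 (adjusted p = 0.0656). Next came Erp27 with -0.75 (adjusted p = 0.0671), Clps with -0.81 (adjusted p = 0.0676) and Cela2a with -0.75 (adjusted p = 0.0789). Cpb1 followed with -0.84 (adjusted p = 0.0837), Rbpjl with -0.79 (adjusted p = 0.0846) and Cela1 with -0.78 (adjusted p = 0.0978). With the replicate number as a block, 6 genes were called lower, beside 10.1% of all tested genes: Zg16 and Serpini2 and also Cela1 (adjusted p = 0.0111), Spink1 (adjusted p = 0.0111), Rbpjl (adjusted p = 0.0294) and Erp27 (adjusted p = 0.0425). The count rested on single libraries. It was 18 without the B library numbered 2, where 9.69% of all tested genes were called lower, and 0 without the B library numbered 1, where 5.99% were. In that setting 9 of the 36 were lower at an unadjusted p under 0.05, beside 14.6% of all tested genes. Mesenchymal markers moved in the same direction and further: 11 of 12 fell in B against A, with a median log2 change of -3.01. Of the endothelial markers 9 of 10 fell (median log2 change -2.70), and of the immune markers 8 of 10 (median -2.45). Of the ductal markers 4 of 15 fell and 1, Krt7, rose (median -0.68), and of the beta cell markers 4 of 9 fell (median -0.65). The part of these cell types in the acinar values was not tested.

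The make-up of the acinar RNA followed the replicate number in part for Amy2b, and set the N library numbered 2 apart. Amy2b took 3.92%, 0.656%, 7.47% and 2.83% of the summed counts of the secreted genes in B libraries, 3.88%, 0.795%, 7.17% and 3.51% in A, and 0.717%, 0.802%, 6.94% and 3.7% in N. Libraries 2, 3 and 4 had about the same Amy2b share in all 3 groups, and library 1 did so in B and A but not in N. Over the 29 acinar genes with 10 or more counts in every library, the root mean square log2 difference in make-up was 0.34 to 0.54 between B and A libraries of the same number and 0.31 to 0.97 between those of different numbers. Between B and N it was 1.06 to 1.36 for the same number and 0.63 to 1.73 for different numbers, and between A and N 0.85 to 1.08 for the same number and 0.69 to 1.63 for different numbers. The B and A libraries numbered 2 were nearer in make-up to the N library numbered 1 (0.63 for B and 0.69 for A) than to the N library numbered 2 (1.36 for B and 1.08 for A). The make-up over all 29 genes thus did not follow the replicate number throughout.

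In the N library numbered 2, Ctrc took 0.00163% of the summed secreted counts, against 0.0819% to 0.155% in the other N libraries. Cela1 took 4.77% there, against 1.69% to 1.98% in the others, Spink1 0.473% against 0.135% to 0.157%, and Ctrb1 7.47% against 10.8% to 12.5%. Relative to the same sum, Bhlha15 counts came to 0.116% in that library and to 0.213% to 0.235% in the other N libraries. Ctrc in the B and A libraries numbered 2 came to 0.0452% and 0.024% of the secreted counts, Cela1 to 1.72% and 2.1%, and Spink1 to 0.11% and 0.159%. For Cela1 and Spink1, the N library numbered 2 thus differed from the B and A libraries of its own number as well as from the other N libraries. Pla2g1b took 0.0252%, 0.0151%, 0.0351% and 0.0344% in B, 0.0214%, 0.00892%, 0.0119% and 0.0146% in A, and 0.0021%, 0.00137%, 0.00201% and 0.000969% in N.

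**Figure D5:**
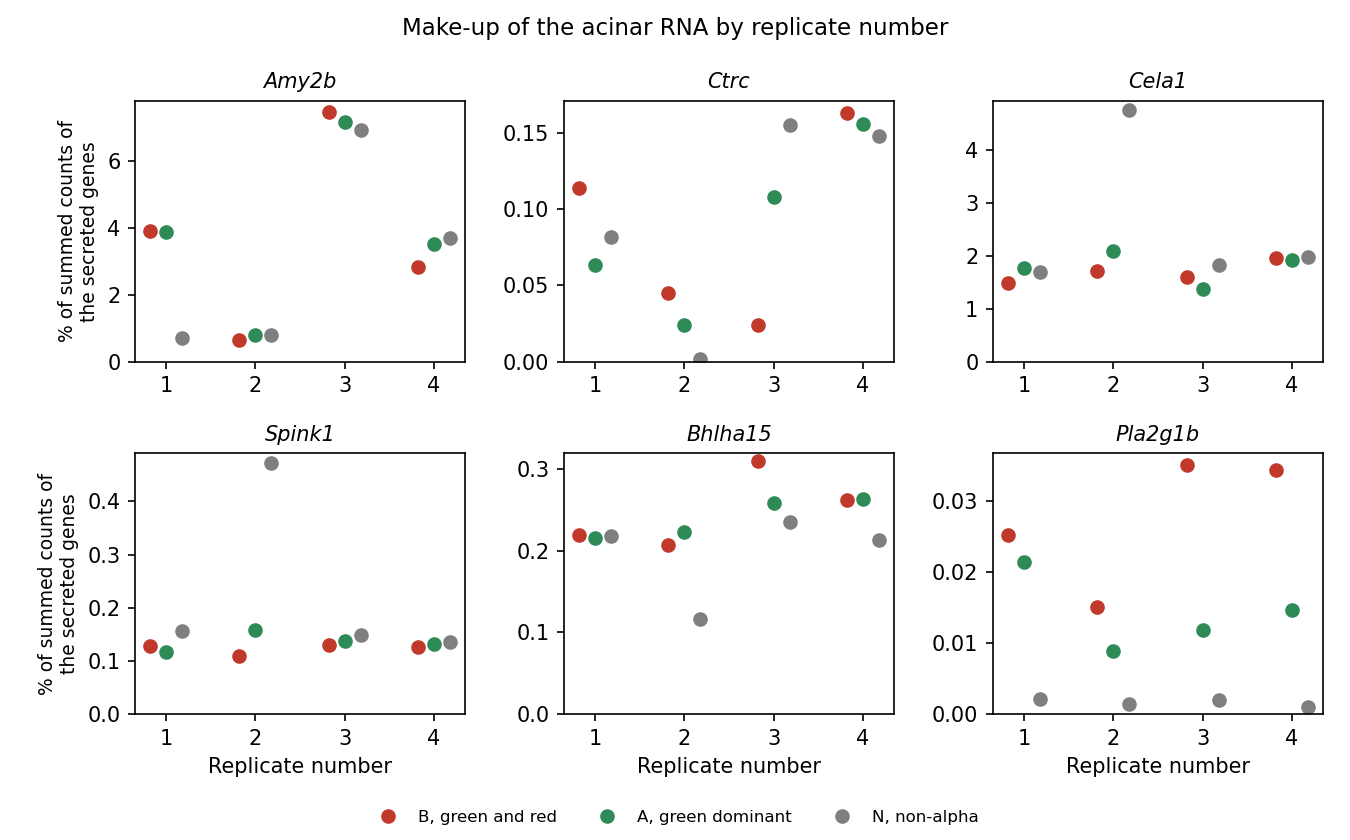
Counts of 6 acinar genes as a percentage of the summed counts of the secreted genes, by replicate number, in B, A and N (1 point per library). Amy2b follows the replicate number except in the N library numbered 1, the N library numbered 2 stands apart for Cela1, Spink1 and Bhlha15, and Pla2g1b is lowest in N at every number.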

How the data were processed

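RNA of 12 sorted libraries was sequenced; per the labels, RNA came from an RNeasy mini plus kit and libraries from a SMARTER mRNA-Seq kit. Tools named in the submitters' processing notes are STAR 2.5.2b and DRAGEN, and builds are GRCm38 (mm10) and GRCm39 (mm39). The sources used here do not pair tools with tables, nor give a strand setting or the treatment of shared reads. Per the file headers, each of 2 tables deposited by the authors holds estimated counts and TPM: 1 with reporter sequences and 1 on mm10. The highest count of the mm10 table, 976850, looked capped, so the first table was used, and the mm10 table served as an alternative. None of the 37 genes starts in that first table where the GRCm38 annotation puts it, and its coordinates were taken as GRCm39. Deposited TPM served only to compare levels between genes and for the ratio of enzymes to factors.

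Estimated counts were rounded (totals changed by at most 0.000286%), filtered with filterByExpr and scaled by TMM, with factors of 1.1 to 1.14 in B, 1.12 to 1.18 in A and 0.732 to 0.81 in N. All groups were fitted together with edgeR 4.0.16 in R 4.3.3 (glmQLFit and glmQLFTest, common biological coefficient of variation 0.305), with Benjamini-Hochberg adjustment over 17230 genes. Standard errors were derived from the F statistic. Fits were also run on simulated counts, with independent libraries and changes in B alone, and the outcome is not given here. Totals from 16216935 to 38545699 counts set the precision, and intervals cover counting error only.

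The 37 genes and the lists were chosen with earlier results of these data known. All 37 are named; described in full are the gene with the highest mean count in N of each role, the factors and those called in B against A, and of other lists the first gene, of which 1 is not reported here. Pla2g1b, Ctrc and Pnlip, and those near the threshold, were also described after their values were seen. Motifs and promoters to show were chosen likewise. Promoter sequences are RefSeq's (GRCm38.p6), and for 24 of 29 bases after the start were found in a transcript of the same gene. Values of genes with relatives of similar sequence (trypsinogens, amylases, Reg1 and Reg2, elastases) are uncertain. So are those of genes that overlap another (Cela2a, Cuzd1, Dnase1, Rbpjl, Sycn and Amy1 among them).

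Replicate numbers were checked as pairs. Per the labels, replicates came from different mothers and each preparation was sorted into the 3 groups, and Y-linked genes showed 1 pattern per number (112 to 156 CPM in number 1, 0.191 to 0.488 CPM in number 3). Deviations from the group means correlated only weakly over genes between B and A libraries of the same number, at 0.05, 0.16, 0.14 and 0.23. Libraries of different numbers were not compared in this way. The numbers count as pairs, from the mothers and the Y-linked pattern, and the block was an alternative. No libraries agreed within sampling noise.

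Alternatives were RLE, upper quartile or no factors, DESeq2 1.42.0, a stricter filter (10 counts in 8 libraries) or none, only the groups compared, the mm10 table, each library left out, and the A and B libraries numbered 3 left out. A further filtered mm10 sheet was not used here. Figures were drawn with matplotlib 3.10.9.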

Additional observations from a re-analysis of the deposited data

Results flagged for a closer look

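Within the groups of 4, 117 sets of values were screened for a sample whose gap to its nearest neighbour exceeded Dixon's 95% critical value, and 10 passed, while chance gives about 1 in 20. In B, library 2 was far above the other B libraries for 5 genes: Cela1 at 780 CPM (others 331 to 404), Cpb1 at 886 CPM (others 425 to 464), Cel at 5020 CPM (others 2150 to 2400), Zg16 at 117 CPM (others 58.7 to 67.9) and Klk1 at 162 CPM (others 57.2 to 64.6). In A, library 1 was far below the others for Cuzd1, at 39.3 CPM (others 59.2 to 60.1). In N, library 2 was far from the others for 4 genes: below them for Pnliprp1 at 34900 CPM (others 58500 to 63300), Ptf1a at 37.8 CPM (others 85.3 to 89.1) and Bhlha15 at 123 CPM (others 401 to 416), and above them for Spink1 at 504 CPM (others 254 to 290). The B library numbered 2 also held 0.152% mesenchymal and 0.00682% endothelial counts, the highest of B (others 0.0463% to 0.113% and 0.00247% to 0.00338%). Its ductal share, 0.202%, was the highest of B too (others 0.159% to 0.179%). Its erythroid share, 0.0422%, and its immune share, 0.0104%, were not (others 0.0278% to 0.0942% and 0.00735% to 0.0106%).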

How the results depend on the processing

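The calls against N held under most settings, and those of B against A did not. In B against N and in A against N, all 22 alternatives each kept the number of called acinar genes within 1.5 times. In B against A the count of 2 became 5 with no factors, where 1649 of 17230 tested genes were called lower. It became 12 with DESeq2 (12% of all tested genes were called lower) and 6 with the replicate block (10.1%). With no filter it was 7, beside 1654 of 31024 genes. Without the A and B libraries numbered 3 it was 1, beside 1570 of 17540 genes. Leaving out 1 library gave 0 to 18. The count was 18 without B replicate 2 (9.69% of all tested genes called lower) and 0 without B replicate 1 (5.99%). It was 7 without A replicate 1 (1152 of 17629 genes) and 5 without N replicate 2 (1695 of 17545 genes). It was 1 without N replicate 1 or 4, A replicate 2 or 4, or B replicate 3 or 4. Those fits called 1079 to 1476 of all tested genes lower. The cause was not tested. The replicate block called Amy2b in A against N, ended the call of Ctrc in B against N and changed no other call against N. Amy1 in A against N was also not called with no factors (log2 change -1.17, adjusted p = 0.115). Signs that reversed belonged to genes not called: Pla2g1b in B against A (-0.01 without the A and B libraries numbered 3), Pnlip in B against A (-0.81 to 0.78 over single libraries left out, negative without B replicate 2), Dnase1 in A against N (-0.01 with RLE factors, upper quartile factors or DESeq2, and -0.29 to 0.61 over single libraries left out, negative without N replicate 1 (-0.03), N replicate 3 (-0.19), N replicate 4 (-0.02) or A replicate 4 (-0.29)), and Dnase1 in B against N (0.13 with no factors, and -0.76 to 0.15 over single libraries left out, positive without N replicate 2); the cause was not tested. With summed counts in place of TPM, which by construction weights genes by length, the ratio of enzymes to factors was 213 in B, 208 in A and 233 in N. Depth limits Pnlip and Dnase1, at 6.04 CPM or less, and Reg2, at 0.115 CPM or less in every library.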
